A study of Mus musculus with 9 samples.

Results

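The clustered protocadherin genes were described in E14 mouse embryonic stem cells (ESCs) treated with control, Dppa2, or Dppa4 siRNA. They were taken as the rows of the deposited expression table with a Pcdha, Pcdhb, Pcdhg, or Pcdhac type gene name on chromosome 18, which gave 24 of the 25965 rows. The alpha cluster had 1 row (Pcdhac1), the beta cluster 22 rows (Pcdhb1 to Pcdhb22), and the gamma cluster 1 row (Pcdhga11). No sequence is printed for them.

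E14 is an established line of 129/Ola background, grown here in serum and LIF without feeder cells. All 3 treatments were transient siRNA transfections given at the start and again at 48 h, with RNA collected at 4 d. The text of the study describes its knockdowns in ESCs that carry fluorescent MERVL and Zscan4c reporters, while the labels of these libraries name only the E14 line, so whether all groups carried these transgenes is not settled here. Polyadenylated RNA was sequenced in 3 libraries per treatment, called A, B, and C as in the labels, which gave 9 libraries. The study calls its siRNA samples biological replicates, but the labels do not say whether these were separate cultures, so p-values measure only the spread between these libraries.

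Clustered protocadherins are cell surface cadherins best known from neurons, where different combinations of them give neighbouring cells different identities. In the alpha and gamma clusters each variable exon has its own promoter and is spliced to constant exons that all members of the cluster share, whereas beta genes lack such constant exons. Promoter choice in the clusters is known to depend on DNA methylation and on CTCF and cohesin, and the last genes of the alpha and gamma clusters, the C-type genes, are expressed more broadly in neurons than the variable ones.

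The deposited values are log2 expression on a scale on which the authors had matched the cumulative distributions of the 9 libraries, so a value does not give a number of reads directly. The order of the distinct values of a library was used to infer reads (as in the plot of value against reads), and the inferred totals on all rows were 24.6, 41.3, and 20.3 Mreads in control siRNA, 25.7, 19.5, and 17.2 Mreads in Dppa2 siRNA, and 26.5, 29.3, and 21.2 Mreads in Dppa4 siRNA libraries A, B, and C. Levels in RPM are reads divided by these totals, which are approximate. Intervals and floors that rest on reads cover counting error only.

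Both targeted transcripts were lower in the cells that received their siRNA. Dppa2, one of the paired DNA-binding proteins under study, was at 7.26, 7.16, and 6.94 on the deposited log2 scale in control libraries A, B, and C and at 3.36, 3.86, and 3.68 in Dppa2 siRNA libraries. Its log2 difference was -3.49 (SE 0.14, n = 3 per treatment; adjusted p = 2.13e-05 by limma). Dppa4, its partner, was at 7.02, 7.11, and 7.06 in control and at 6.16, 6.14, and 6.09 in Dppa4 siRNA libraries, a log2 difference of -0.93 (SE 0.08; adjusted p = 0.000281 by limma). In both cases the treated libraries lay below all control libraries.

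The rows do not resolve single alpha or gamma genes. The Pcdhac1 row covers chromosome 18 from 36930285 to 37187657 (GRCm38), a stretch in which the GENCODE M21 annotation has all 14 alpha genes. The Pcdhga11 row covers 37674335 to 37841873 and holds 20 of the 22 annotated gamma genes, all but Pcdhga1 and Pcdhga2, which begin before it. Which exons were counted for these rows is not given in the sources used here, and lengths were taken as all annotated exon bases inside the row, 40650 for alpha and 65043 for gamma. The exons common to all genes of a cluster make up 2860 and 2116 of these bases. The alpha C-type gene Pcdhac2 and the gamma C-type genes Pcdhgc3, Pcdhgc4, and Pcdhgc5 therefore had no rows of their own, and which promoters were used could not be read from these values. Between the alpha and gamma rows lie the 22 beta genes, 18 of them annotated with 1 exon, over 256 kb. The rows as a whole span 912 kb, with gaps of 77.3 kb before and 153 kb after the beta genes.

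The gamma row was the only one of the 24 with more than 14 reads in any library. It held 98.7% of the 15205 reads inferred for all 24 rows, against 90 reads for the alpha row and 105 for all beta genes. Reads per kilobase were summed over the 9 libraries, with the exon lengths above for alpha and gamma and the span of the row for beta genes. The gamma row had 231 reads per kilobase, Pcdhb14 had 6.98, Pcdhb22 had 6.52, and the alpha row had 2.21. The alpha and gamma lengths add up the exons of many genes, so their levels and those of the beta genes are not on an equal footing. Genes were tested when 3 or more libraries exceeded a log2 value of -2, which held for the alpha and gamma rows only, that is 8.33% of the 24 rows against 56.2% of all rows. No row of the beta cluster passed this filter.

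Neither tested row was called in any comparison. A gene was called when it had an adjusted p below 0.05 in limma, fitted to all 14601 tested genes, and also passed the intensity difference filter, which sets a change against those of genes of like expression. For Dppa2 against control siRNA, 0 of 2 rows were called, beside 1.95% of all tested genes (0.39% called higher and 1.56% lower). For Dppa4 against control siRNA it was again 0 of 2, beside 2.02% (0.384% higher and 1.64% lower), and for Dppa4 against Dppa2 siRNA 0 of 2, beside 0.0205%. By limma alone no row passed either, where the shares of all tested genes were 3.44%, 3.44%, and 0.0205%. With an unadjusted p below 0.05 in limma there was 1 row in the Dppa2 comparison, the alpha row, beside 15.7% of all tested genes, and none in the others, beside 18% and 6.76%. Both knockdowns were compared with the same control libraries.

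The gamma row was at a similar level in all 9 libraries. Its deposited log2 values were 5.39, 5.67, and 5.38 in control, 5.60, 5.54, and 5.73 in Dppa2 siRNA, and 5.68, 5.57, and 5.46 in Dppa4 siRNA libraries A, B, and C. The lowest 2 values belong to control libraries, but control library B lay among the treated ones, so the groups overlapped. The estimated reads per library ran from 1183 to 2938. In RPM, the levels were 62.7 ± 7.37, 69.1 ± 4.72, and 66.6 ± 4.90 (SD, n = 3) for control, Dppa2, and Dppa4 siRNA, and the highest library was 1.27 times the lowest. Per kilobase of exon (RPKM) this was 0.964 ± 0.113, 1.06 ± 0.0725, and 1.02 ± 0.0753 (SD, n = 3).

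The differences of the gamma row were small in both knockdowns. The log2 difference was 0.14 for Dppa2 siRNA (SE 0.11, 95% interval -0.12 to 0.40, n = 3 per treatment; adjusted p = 0.685 by limma) and 0.09 for Dppa4 siRNA (interval -0.17 to 0.35; adjusted p = 0.775). Between the knockdowns it was -0.05 (interval -0.31 to 0.20; adjusted p = 0.990). These intervals bound a change of the row as a whole, and a shift from one gamma gene to another inside it would not be seen.

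**Figure D1:**
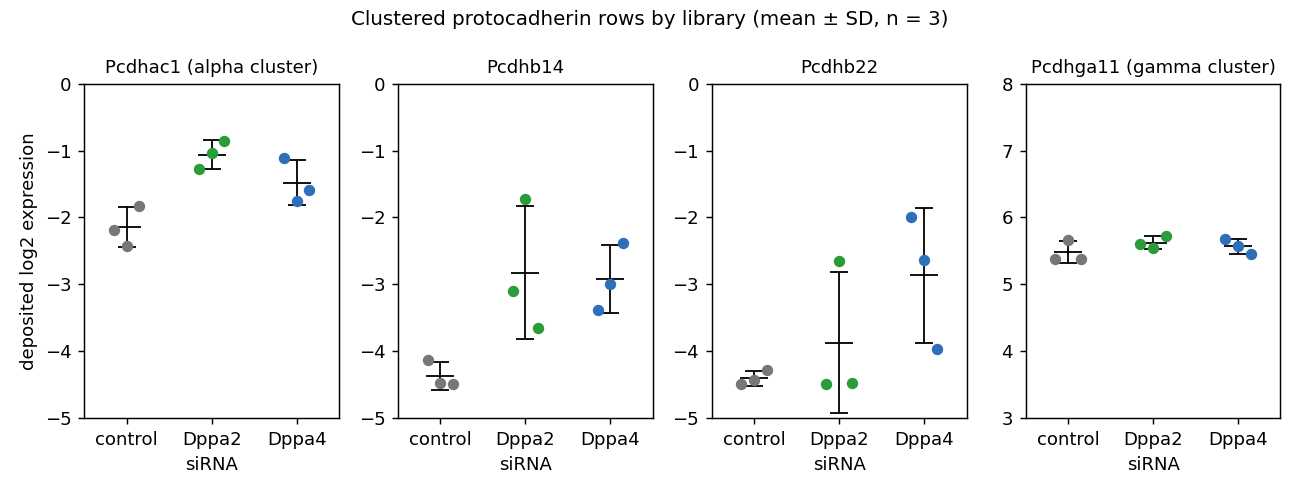
Deposited log2 expression (y axis) by siRNA treatment (x axis) for the Pcdhac1, Pcdhb14, Pcdhb22, and Pcdhga11 rows, with 1 point per library and black bars for mean ± SD (n = 3). Each y axis covers 5 log2 units, and the axis of Pcdhga11 stands higher than the others, with all its libraries between 5.38 and 5.73.

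The alpha row was higher in all treated libraries than in all control libraries on the deposited scale. Its log2 values were -2.18, -2.42, and -1.83 in control, -1.28, -1.03, and -0.86 in Dppa2 siRNA, and -1.10, -1.75, and -1.59 in Dppa4 siRNA libraries A, B, and C. Groups that did not overlap in this direction were found for 9.57% of all tested genes with Dppa2 siRNA and 13.7% with Dppa4 siRNA. Among the 884 other tested genes within 0.5 of its mean log2 value the shares were 15.2% and 16.3%. The row passed the filter on low values through the treated libraries, all 6 of them above -2 against 1 of 3 control libraries, so its place above control, its difference, and its interval are partly fixed by the filter.

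The log2 difference of the alpha row was 1.09 with Dppa2 siRNA (SE 0.31, 95% interval 0.38 to 1.79, n = 3 per treatment; adjusted p = 0.116 by limma) and 0.66 with Dppa4 siRNA (interval -0.05 to 1.37; adjusted p = 0.313). Neither passed. Between the knockdowns the difference was -0.42 (interval -1.13 to 0.28; adjusted p = 0.869 by limma). Of the 884 genes of like level, 25.6% moved at least as far as the alpha row in either direction with Dppa2 siRNA and 48.2% with Dppa4 siRNA, and their median differences were 0.14 and 0.17. Without the filter on low values, and without the intensity trend of limma, the adjusted p for Dppa2 siRNA was 0.0311 and 0.0331, but the row did not pass the intensity difference filter in either setting.

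The reads behind the alpha row were few and nearly equal in number. It had 8, 13, and 8 reads in control, 11, 10, and 10 in Dppa2 siRNA, and 14, 9, and 7 in Dppa4 siRNA libraries A, B, and C, which sums to 29, 31, and 30 reads. The same number of reads received a different value in each library, and 10 reads stood at -1.85, -2.87, and -1.45 in control but at -1.40, -1.03, and -0.86 in Dppa2 siRNA and at -1.62, -1.61, and -1.08 in Dppa4 siRNA libraries. The values that a low number of reads received were thus mostly higher in the treated libraries.

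In RPM, the alpha row was at 0.325, 0.315, and 0.395 in control, 0.428, 0.512, and 0.583 in Dppa2 siRNA, and 0.528, 0.307, and 0.331 in Dppa4 siRNA libraries. On this scale the Dppa2 siRNA libraries were also above all control libraries, and the Dppa4 siRNA libraries overlapped with the controls. The lowest Dppa2 siRNA library, at 0.428, was close to the highest control, at 0.395, and the error of RPM differs between treatments. The share of all tested genes above control in RPM is not given here, so this order is a description only. The limma log2 difference, in a fit added after seeing the data, was 0.54 for Dppa2 siRNA (adjusted p = 0.520) and 0.14 for Dppa4 siRNA (adjusted p = 0.910). From the pooled reads the ratio to control was 1.48 (exact 95% interval 0.860 to 2.54) and 1.16 (0.671 to 1.998). Both intervals included 1.

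**Figure D2:**
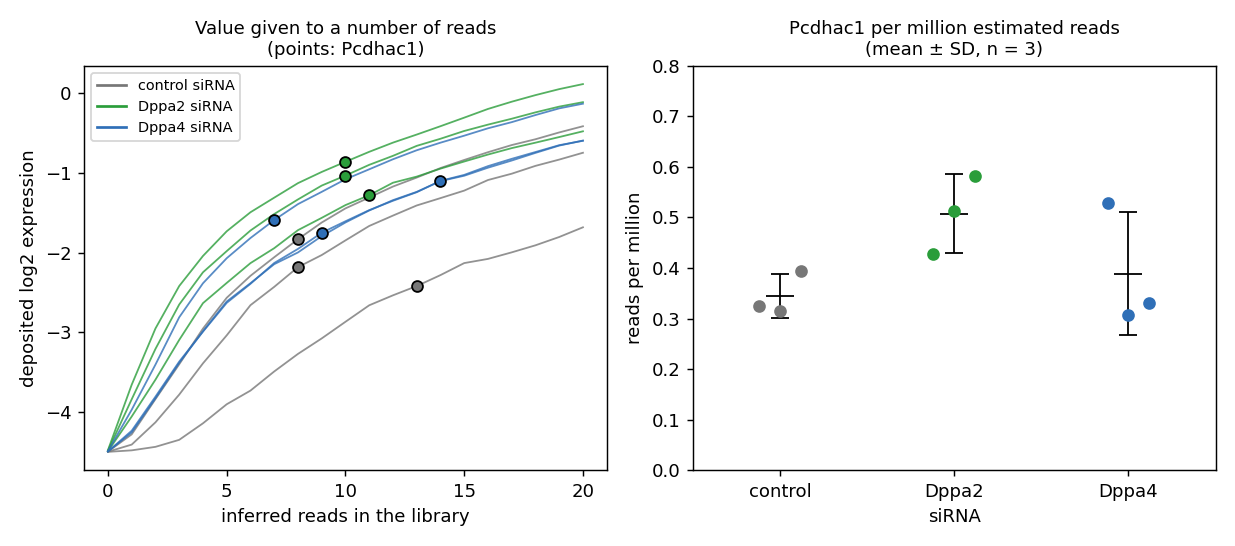
Left, deposited log2 expression (y axis) given to 0 to 20 inferred reads (x axis), with 1 line per library coloured by siRNA and points for Pcdhac1. Right, Pcdhac1 in RPM (y axis) by siRNA (x axis), with 1 point per library and mean ± SD (n = 3). At 10 reads the lines lie between -2.87 and -0.86, and the lowest line is control library B.

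The beta cluster had few reads, spread unevenly over its genes. Of the 22 genes, 7 had no read in any library (Pcdhb2, Pcdhb5, Pcdhb9, Pcdhb10, Pcdhb13, Pcdhb15, and Pcdhb21), which with 3 reads as the limit for a count of 0 allows a level of up to 0.0133 RPM over the 226 Mreads of all libraries. This was 31.8% of the beta genes, and 28.7% of all deposited rows had no read in any library. Another 8 genes had between 1 and 5 reads in all 9 libraries together, and 7 had more. The highest value of any beta gene in 1 library was 8 reads.

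In order along the chromosome, the first 11 beta genes had 27 reads and the last 11 had 78. Pcdhb14 with 24 reads and Pcdhb22 with 20 held 41.9% of the beta reads, and without them the last 11 genes had 34 reads. Genes without reads lay between genes with reads all along the cluster. Pcdhb3 had 10 reads, Pcdhb18 had 9, Pcdhb19 had 8, and Pcdhb7 and Pcdhb16 had 7 each.

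Beta genes resemble each other in sequence. When every 5th stretch of 50 bases, the length of the reads, was looked up, 21 of the 22 genes shared stretches with another beta gene, with a median share of 4.49% and a highest share of 12.2%, in Pcdhb12. The share was 2.02% for Pcdhb14 and 7.80% for Pcdhb22, which shared most with Pcdhb21. All these shares are of whole annotated transcripts and not of the counted rows. Pcdhb14 and Pcdhb22 have 8695 and 6609 annotated exon bases, where their rows span 3438 and 3067. The shares within the rows were not computed and may be higher. Counts of such genes are uncertain where reads could be placed on either.

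**Figure D3:**
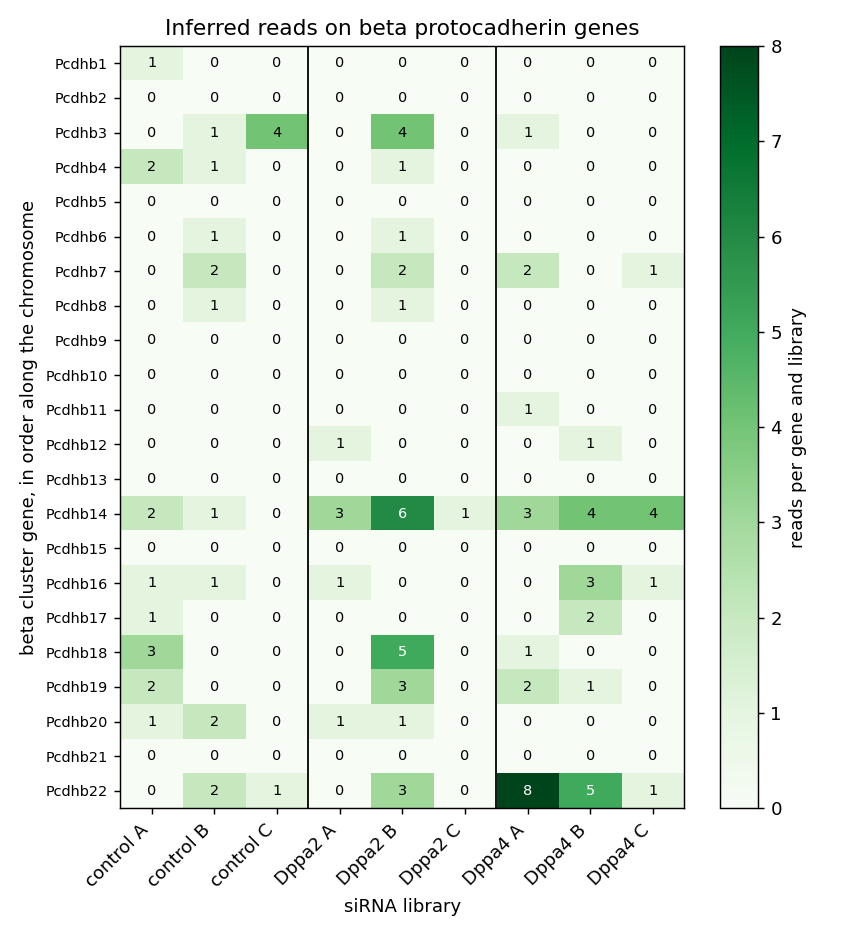
Inferred reads (number and colour) for the 22 beta genes in order along the chromosome (rows) in the 9 libraries (columns, grouped by siRNA). Most cells are 0, the highest value is 8 in Pcdhb22 with Dppa4 siRNA library A, and Dppa2 siRNA library B holds 27 reads where library C of the same treatment holds 1.

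Summed over the beta cluster, the treatments overlapped and 1 library stood apart. The libraries A, B, and C had 13, 12, and 5 reads in control, 6, 27, and 1 in Dppa2 siRNA, and 18, 16, and 7 in Dppa4 siRNA cells. In Dppa2 siRNA library B 10 of 22 beta genes had a read, 45.5%, where 12.6% of the other rows below the filter had one. In control library B, the deepest, the shares were 40.9% and 25.9%, and in Dppa2 siRNA library C they were 4.55% and 11.6%.

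In RPM the cluster was at 0.355 ± 0.151 in control, 0.558 ± 0.719 in Dppa2 siRNA, and 0.518 ± 0.176 in Dppa4 siRNA cells (SD, n = 3). Without library B the Dppa2 siRNA cells were at 0.146 ± 0.124 (SD, n = 2), below the control mean instead of above it. A direction for the cluster with Dppa2 siRNA thus rested on 1 library.

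Pcdhb14 was named because it had the highest mean value of the beta genes over the 9 libraries, a mean to which the treated libraries gave most reads. In control its 3 reads were fewer than the 5 of Pcdhb3, so its differences from control are a description of a gene picked partly through them. Its row runs from 37447657 to 37451094, shorter than the single exon of 8695 bases in the annotation used here. Control libraries A, B, and C had 2, 1, and 0 reads, Dppa2 siRNA libraries 3, 6, and 1, and Dppa4 siRNA libraries 3, 4, and 4. On the deposited log2 scale these were -4.13, -4.48, and -4.49, then -3.09, -1.72, and -3.65, and then -3.38, -2.99, and -2.38, so that both treated groups lay above the control group. In RPM, Dppa2 siRNA library C with 0.0583 lay below control library A with 0.0812, and the Dppa4 siRNA libraries at 0.113, 0.137, and 0.189 lay above all control libraries. Of 413 rows outside the clusters that also failed the filter and had 20 to 28 reads, 9.93% lay above control with Dppa2 siRNA and 11.4% with Dppa4 siRNA on the deposited scale, and 1.69% and 3.63% in RPM. The ratio of pooled RPM to control was 4.60 for Dppa2 siRNA (exact 95% interval 1.18 to 26.0), and for Dppa4 siRNA it was 4.10 (1.08 to 22.9). The control side of these ratios is 3 reads. Without Dppa2 siRNA library B, which gave 6 of the 10 reads, the first ratio was 2.68 (0.453 to 18.3). Without control library A, which gave 2 of the 3 control reads, the ratios were 9.86 (1.40 to 428) and 8.79 (1.28 to 378). The interval also included 1 without control library B or C in both knockdowns, and without Dppa4 siRNA library B or C in the second.

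Pcdhb22, the last beta gene, was chosen for description after its values were seen. It had 0, 2, and 1 reads in control, 0, 3, and 0 in Dppa2 siRNA, and 8, 5, and 1 in Dppa4 siRNA libraries A, B, and C. The ratio to control was 5.22 (exact 95% interval 1.46 to 28.3) with Dppa4 siRNA and 1.38 (0.185 to 10.3) with Dppa2 siRNA. Without Dppa4 siRNA library A, which gave 8 of the 14 reads, the first ratio was 3.41 (0.729 to 21.1), and without control library B, which gave 2 of the 3 control reads, it was 8.16 (1.24 to 345). The second ratio rested on Dppa2 siRNA library B alone, without which there was no read, and it was 0.986 (0.132 to 7.36) without control library A, 2.16 (0.173 to 113) without control library B, and 2.35 (0.314 to 17.5) without Dppa2 siRNA library A. On the deposited log2 scale the Dppa4 siRNA libraries, at -1.998, -2.63, and -3.97, lay above the control libraries, the highest of which was at -4.28. Of the 413 rows of 20 to 28 reads described for Pcdhb14, 11.4% did so. In RPM, Dppa4 siRNA library C with 0.0472 lay below control libraries B and C with 0.0485 and 0.0494, so on that scale the groups overlapped.

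Ratios were computed for all beta genes with a read on either side, 14 with Dppa2 siRNA and 15 with Dppa4 siRNA, with no adjustment for their number. The intervals that lay wholly above 1 were those of Pcdhb14 in both knockdowns and of Pcdhb22 with Dppa4 siRNA, and none lay wholly below 1. They take the inferred totals as exact, though the error of RPM differs between treatments, and the lower limits for Pcdhb14, 1.18 and 1.08, lie close to 1. None of these genes passed the filter on low values. In a fit of all rows without that filter, Pcdhb14 had a log2 difference of 1.54 with Dppa2 siRNA (adjusted p = 0.0479 by limma) and 1.45 with Dppa4 siRNA (adjusted p = 0.263), and Pcdhb22 one of 1.54 with Dppa4 siRNA (adjusted p = 0.384), and neither passed the intensity difference filter.

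Transcripts for proteins listed as regulators of the clusters were detected and were not called. Of a list of 24 regulators, all were tested, and 0 were called in either knockdown, nor did any pass by limma alone. The shares of all tested genes were 1.95% and 2.02% called and 3.44% in each knockdown by limma alone. With an unadjusted p below 0.05 there were 0 of the 24 with Dppa2 siRNA and 5 of the 24 with Dppa4 siRNA, beside 15.7% and 18% of all tested genes. The median log2 differences of the list were -0.05 and -0.07, beside 0.02 and 0.03 over all tested genes. The 3 with the highest mean were Trim28, a corepressor that recruits the H3K9 methyltransferase Setdb1, Dnmt3l, a cofactor of the de novo DNA methyltransferases, and Dnmt3b, one of these enzymes. Dnmt3l was at 9.09, 9.12, and 9.43 in control and 9.54, 9.62, and 9.56 in Dppa4 siRNA libraries on the deposited log2 scale, above all controls, as were 13.7% of all tested genes. Its difference was 0.36 (SE 0.10; adjusted p = 0.104 by limma), and without control library C it was 0.47 (adjusted p = 0.0183) and Dnmt3l was called. Picked after their values were seen, the methyltransferase Dnmt3a also lay above all controls with Dppa4 siRNA (log2 difference 0.40; adjusted p = 0.211 by limma), and the dioxygenase Tet3 lay below them (-0.59; adjusted p = 0.152). In all, 2 of the 24 lay above and 3 below with Dppa4 siRNA, beside 13.7% and 10.2% of all tested genes. With Dppa2 siRNA it was 0 and 1, beside 9.57% and 8.2%. Ezh2, also picked after its values were seen, lay below in both (-0.15 and -0.21; adjusted p = 0.541 and 0.257 by limma). Trim28 differed by -0.09 with Dppa2 siRNA and 0.13 with Dppa4 siRNA, and Dnmt3b by 0.09 and 0.10.

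Genes for partners and processing enzymes of the protocadherin proteins were not called either. Of 18 listed genes 17 were tested, and 0 were called or passed limma alone in either knockdown. With an unadjusted p below 0.05 there were 0 of the 17 and 4 of the 17 with Dppa2 and Dppa4 siRNA, beside 15.7% and 18% of all tested genes. The median log2 differences were -0.01 and -0.06. The 3 with the highest mean were Rac1, a GTPase of the actin cytoskeleton, and Nckap1 and Cyfip1, subunits of the WAVE complex, which binds the cytoplasmic part of many cadherins. Their log2 differences were 0.17, -0.14, and -0.01 with Dppa2 siRNA and 0.10, -0.23, and 0.06 with Dppa4 siRNA.

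Cadherins outside the clusters included called genes. Of 25 listed genes 13 were tested, with 1 called lower in each knockdown, beside 1.56% and 1.64% of all tested genes, and none called higher, and the median log2 differences were -0.19 and -0.18. With an unadjusted p below 0.05 in limma there were 3 and 4 of the 13, beside 15.7% and 18% of all tested genes. Below all controls lay 3 with Dppa2 siRNA and 6 with Dppa4 siRNA, beside 8.2% and 10.2%. Above all controls lay 0 and 2, beside 9.57% and 13.7%. Cdh3, which encodes P-cadherin, was at 4.54, 4.62, and 4.43 in control, 4.31, 4.11, and 4.18 in Dppa2 siRNA, and 3.82, 3.58, and 3.84 in Dppa4 siRNA libraries on the deposited log2 scale. It fell by 0.79 with Dppa4 siRNA (SE 0.11, n = 3 per treatment; adjusted p = 0.00655 by limma), while its difference of -0.33 with Dppa2 siRNA did not pass (adjusted p = 0.181), and the difference of -0.46 between the knockdowns did not pass either (adjusted p = 0.586).

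Celsr2, a seven-pass cadherin of planar cell polarity, was at 3.30, 2.88, and 2.92 in control and at 2.11, 2.44, and 2.33 in Dppa2 siRNA libraries. It fell by 0.74 with Dppa2 siRNA (SE 0.16; adjusted p = 0.0434 by limma), and its difference with Dppa4 siRNA was -0.62 (adjusted p = 0.0804). Leaving out any single library of the 9 ended the call of Celsr2, with log2 differences from -0.82 to -0.61. Cdh1, which encodes E-cadherin and had the highest mean of the list, differed by 0.06 and -0.16, and Fat1, a giant cadherin, by -0.19 and -0.13. Pcdh18, a protocadherin outside the clusters that was chosen after its values were seen, had 11 to 22 reads in control and 2 to 3 in Dppa4 siRNA libraries. It passed limma there (log2 difference -2.15, SE 0.48; adjusted p = 0.0476) but not the intensity difference filter, and it no longer passed limma in 12 of 17 alternatives. Pcdh18 was tested only through control libraries A and C and Dppa2 siRNA library B, which were above -2. Its lower place with Dppa4 siRNA, its difference, and its adjusted p are thus partly fixed by the filter on low values. With a pseudocount of 0.5 on the linear scale its difference was -0.63.

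The neighbours of the clusters, all rows within 500 kb of the first and last, gave no calls. Of 35 rows 31 were tested, and 23 had a difference above 0 in each knockdown, where 54.1% and 55.4% of all tested genes did. With Dppa2 siRNA 6 of the 31 lay above all controls and with Dppa4 siRNA 10, beside 9.57% and 13.7% of all tested genes, and 0 lay below all controls, beside 8.2% and 10.2%. No neighbour was called or passed limma alone, and 6 of the 31 had an unadjusted p below 0.05 in each comparison with control, beside 15.7% and 18% of all tested genes. Between the knockdowns it was 1 of the 31, beside 6.76%. The median log2 differences were 0.11 and 0.14. The 3 with the highest mean were Pfdn1, a subunit of the chaperone prefoldin, Zmat2, a zinc finger protein, and Hars, the cytosolic histidyl-tRNA synthetase, which differed by 0.11, 0.03, and 0.08 with Dppa2 siRNA and by 0.14, 0.01, and 0.14 with Dppa4 siRNA.

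The largest differences among the neighbours were of genes with few reads, like the alpha row. They were picked after their values were seen, and the filter bears on them in the same way, with no control library of E230025N22Rik and 1 of 3 of Slc25a2 above -2. E230025N22Rik was at -4.41, -3.49, and -4.49 in control, -1.40, -3.21, and -1.13 in Dppa2 siRNA, and -1.62, -2.39, and -1.82 in Dppa4 siRNA libraries on the deposited log2 scale, with at most 10 reads in any of them. Its log2 differences were 2.21 and 2.18 (SE 0.61; adjusted p = 0.09999 and 0.0965 by limma). Slc25a2, a mitochondrial carrier that lies between the beta and gamma genes, differed by 1.66 and 1.62 (SE 0.58; adjusted p = 0.192 and 0.175 by limma) with 4 to 22 reads per library. Also picked after their values were seen, its neighbour Taf7, a subunit of TFIID with 1991 or more reads per library, differed by -0.17 and -0.06, and Diap1, the formin gene after the gamma cluster, differed by -0.27 and -0.20.

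**Figure D4:**
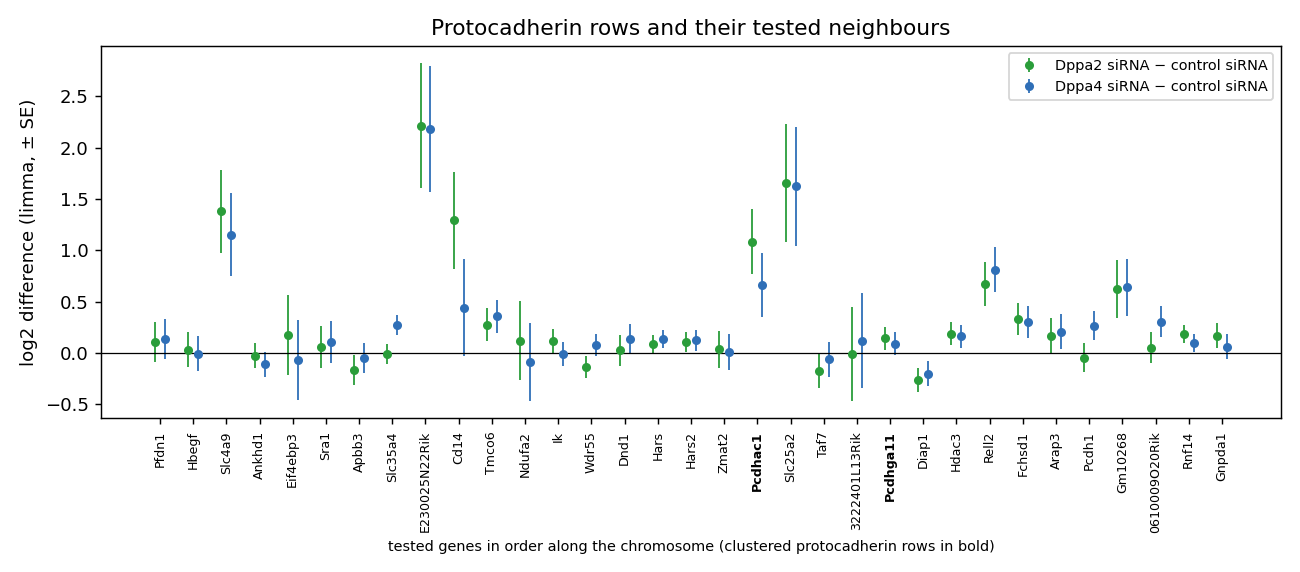
Log2 difference from control siRNA (y axis, limma estimate ± SE) for the 2 tested protocadherin rows (bold) and the 31 tested neighbours in order along the chromosome (x axis), with Dppa2 siRNA in green and Dppa4 siRNA in blue. E230025N22Rik and Slc25a2 lie highest, at 2.21 and 1.66 with Dppa2 siRNA, and the gamma row Pcdhga11 lies at 0.14 and 0.09.

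Markers were looked at because neural cells are the main known site of these genes. All 8 ESC markers were tested and none was called, passed limma alone, or had an unadjusted p below 0.05 against control, and Pou5f1, the defining factor, was the most abundant at 1735 RPM. Of all tested genes 1.95% and 2.02% were called, 3.44% in each knockdown passed limma alone, and 15.7% and 18% had an unadjusted p below 0.05. Nanog, a pluripotency factor, had a log2 difference of -0.28 with Dppa4 siRNA (adjusted p = 0.526 by limma). Without control library C it was called lower there (log2 difference -0.52; adjusted p = 0.0487 by limma). The 12 neural markers summed to 178, 183, and 174 RPM in control, 130, 131, and 132 in Dppa2 siRNA, and 141, 140, and 130 in Dppa4 siRNA libraries, so the treated libraries lay below the controls in a sum to which Tubb3 gave more than any other marker. Of 10 tested, 3 had a difference above 0 and 7 below 0 in each knockdown, and the median log2 differences were -0.28 and -0.17. Snap25, a synaptic SNARE protein chosen after its values were seen, lay above all controls with Dppa2 siRNA, as did 9.57% of all tested genes. It did not pass (log2 difference 1.13, SE 0.42; adjusted p = 0.218 by limma). Its reads per library overlapped, at 4 to 11 in control and 6 to 9 in Dppa2 siRNA libraries, as did those of the alpha row. All its control libraries were below -2, so it was tested only through treated libraries. Tubb3, a neuronal tubulin and the most abundant of them at 86.1 RPM, was called lower with Dppa2 siRNA (log2 difference -0.54, SE 0.11; adjusted p = 0.0369 by limma), and none was called with Dppa4 siRNA, beside 1.56% and 1.64% of all tested genes called lower. With an unadjusted p below 0.05 there were 3 of the 10 and 4 of the 10, beside 15.7% and 18%. Leaving out any library but control C or Dppa4 siRNA C ended the call of Tubb3, with log2 differences from -0.61 to -0.45. In such bulk samples fewer cells of a type and less RNA per cell cannot be told apart.

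Markers of primitive endoderm, a lineage that can arise in ESC cultures, had mostly higher values in the knockdowns, and none of them was called. Of the 6, all tested, 5 had a difference above 0 in each knockdown, with median log2 differences of 0.66 with Dppa2 siRNA and 1.21 with Dppa4 siRNA beside 0.02 and 0.03 over all tested genes. With Dppa4 siRNA these 5 lay above every control library and had an unadjusted p below 0.05, and their log2 differences were 1.22 (Gata4), 1.44 (Gata6), 1.20 (Sox17), 0.80 (Pdgfra), and 2.02 (Sox7). Groups that did not overlap in this direction were 13.7% of all tested genes, and 18% had an unadjusted p below 0.05. Gata6 and Sox17, transcription factors of the lineage, passed limma there (adjusted p = 0.0132 and 0.0348) but not the intensity difference filter, so neither was called. Of all tested genes 3.44% passed limma alone with Dppa4 siRNA and 2.02% were called. Gata6 was called without control library B (log2 difference 1.57; adjusted p = 0.0312), and Sox17 no longer passed limma in 9 of 18 alternatives and Gata6 in 2. With Dppa2 siRNA none passed limma, beside 3.44% of all tested genes, and 3 of the 6 had an unadjusted p below 0.05, beside 15.7%. Lama1, a laminin chain at 71.0 RPM that made up most of the sum, differed by -0.12 and -0.17, and the summed markers overlapped at 71.7 to 90.1 RPM in control, 74.2 to 81.9 in Dppa2 siRNA, and 79.2 to 82.8 in Dppa4 siRNA libraries.

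The 6 fibroblast markers, led by Thy1, summed to 14.4 to 19.5 RPM over all libraries. Of 4 tested, 2 had a difference above 0 and 2 below 0 with Dppa2 siRNA, and 3 and 1 with Dppa4 siRNA. Pdgfrb, a growth factor receptor, was called higher in both knockdowns, as were 0.39% and 0.384% of all tested genes (log2 differences 1.08 and 0.90; adjusted p = 0.00718 and 0.0173 by limma). Twist1, a transcription factor of mesenchyme, lay below all controls in both knockdowns, as did 8.2% and 10.2% of all tested genes, but did not pass (log2 differences -0.41 and -0.38; adjusted p = 0.241 and 0.238 by limma). The call of Pdgfrb with Dppa4 siRNA was lost without control library A and without each of the 3 Dppa4 siRNA libraries, with log2 differences of 0.82, 0.79, 0.97, and 0.95. The 6 mesoderm and endoderm markers, led by Eomes, summed to 7.11 to 10.8 RPM. In the knockdowns none was called, beside 1.95% and 2.02% of all tested genes, or passed limma alone, beside 3.44% in each. With an unadjusted p below 0.05 there were 1 of the 6 and 0 of the 6, beside 15.7% and 18%. No marker of any list was at 0 reads in all libraries, and the part of these cell types in the protocadherin values was not tested.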

How the data were processed

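RNA-seq of 9 libraries was used, grouped by the siRNA given in the labels. The authors trimmed the reads and mapped them to GRCm38 (Trim Galore 0.4.5 and HISAT2 2.0.5 in their processing notes), quantitated them by strand on mRNA probes in SeqMonk, matched cumulative distributions, and deposited log2 expression values. Since these are not counts, limma 3.58.1 (R 4.3.3) stood in for the DESeq2 test of the study. It was fitted to all 9 libraries with treatment as the only term, an intensity trend, and p-values adjusted by Benjamini-Hochberg for the 14601 genes with log2 above -2 in at least 3 libraries. The intensity difference filter was rebuilt on the 1% of genes nearest in mean, at p below 0.05.

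Reads were inferred as whole steps of the distinct values up to 300 reads (63.5% to 71.8% of rows per library) and above from the slope between 200 and 300 reads, too few whole values for a count model. Computed at 10 to 30 reads instead, this slope differed by -0.14 to -0.02 (log2) in control and by -0.38 to -0.25 in treated libraries, so the error of RPM differs between treatments. Ratios of reads have exact (Clopper-Pearson) 95% intervals.

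The members, the lists, and the alternatives were chosen with earlier results of these data known. Genes named were the tested members, the highest of each cluster, the C-type genes, the 3 highest and all called regulators, partners, cadherins, and neighbours, and the 5 genes of most like pattern. Marker genes and those said to be picked after their values were seen fall outside this rule. Intervals came from scipy 1.17.1, tables from pandas 2.3.3 and numpy 2.4.6, and plots from matplotlib 3.10.9 in Python 3.11.15, and the fit was tested on simulated data. No pair of libraries held identical values (0 pairs). Alternatives covered the filter, the trend, a pseudocount, the replicate block, the libraries fitted, and each library left out, with RPM added after seeing the data.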

Additional observations from a re-analysis of the deposited data

How the results depend on the processing

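The number of clustered protocadherin rows called was 0 in each of the 3 comparisons under all 18 alternatives. For the alpha row the log2 difference ranged from 0.95 to 1.24 with Dppa2 siRNA and from 0.47 to 0.82 with Dppa4 siRNA when each library was left out, and for the gamma row from 0.09 to 0.24 and from 0.04 to 0.19. With a pseudocount of 0.5 the alpha row differed by 0.43 and 0.24 (adjusted p = 0.118 and 0.367 by limma). It could not be tested with a filter on mean log2 above 0. Between the knockdowns the gamma row, at -0.05 and from -0.11 with a library left out, changed sign to 0.000829 without Dppa2 siRNA library C and to 0.00149 without Dppa4 siRNA library C. With a replicate block by library letter 0 rows were called, and the alpha row had an adjusted p of 0.236 (limma) with Dppa2 siRNA. Deviations from the group means correlated at -0.58 to 0.37 (median -0.04) in the 9 same-letter pairs, over genes, and as high as 0.69 between libraries of different letters. The values thus gave no sign of a pairing by letter. Whether libraries of the same letter were handled together is not given in the labels and cannot be read from these correlations.

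Without the filter on low values, 9140 rows passed limma with Dppa2 siRNA, among them 9 clustered protocadherin rows, 7 of which had no read in any library. Their log2 difference of 0.01 (adjusted p = 0.0311) is the difference between the values listed for 0 reads, and none passed the intensity difference filter. Celsr2 no longer passed limma in 12 of 18 alternatives, Tubb3 in 11, Sox17 in 9, Gata6 in 2, and Pdgfrb with Dppa4 siRNA in 6, while Cdh3 with Dppa4 siRNA and Pdgfrb with Dppa2 siRNA passed limma in all 18. Dnmt3l and Nanog were called with Dppa4 siRNA only without control library C, and Gata6 without control library B or with the filter on mean log2 above 0. Depth limits the alpha and beta genes, at no more than 14 reads per gene and library.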

Other observations

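Some genes outside the clusters had values close in pattern to the tested rows, as a description over the 9 libraries, which share their treatments and their matched scale. The genes most like Pcdhac1 were Gm1082 (Pearson r = 0.951), Slc26a8 (0.941), D930028M14Rik (0.937), Gm11110 (0.933), and Procr (0.932), and 15 genes reached 0.9. These 5 had from 5 to 59 reads per library, where the alpha row had 7 to 14. The genes most like Pcdhga11 were Capzb (Pearson r = 0.956), Gltp (0.952), Rhod (0.944), Tubb2b (0.942), and Flot2 (0.937), and 23 genes reached 0.9.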
